A study of Homo sapiens with 30 samples.

Results

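The receptors for interferons are built from 6 chains, encoded by IFNGR1, IFNGR2, IFNAR1, IFNAR2, IFNLR1 and IL10RB, and their transcripts were followed in human glioblastoma cell lines exposed to IFN-γ. The chains were taken by gene symbol, and all 6 of 6 were found among the 61471 genes of the RNA table of each line. U87 (U87-MG) and U251 (U251-MG), both wild type according to the labels, were grown in DMEM and treated with human IFN-γ. The 5 groups of each line were an unexposed control (Untreated), IFN-γ for 3 days (D3), for 14 days (D14) and for 28 days (D28), and a washout group with 14 days of IFN-γ and a further 14 days in medium alone (D28WO). Of 30 samples, 28 libraries were used: 3 in every group of U251, and in U87 3 in Untreated, D28 and D28WO and 2 in D3 and D14. The treatment protocol in the labels gives a dose of 1 µg/mL, another label gives a volume, and the study's methods give a lower concentration. The untreated libraries are labelled day 3, whereas the design text places them at the start, so they do not control for time in culture. Replicates were independent cultures of a line, but by the methods cultures were divided at day 14 into continued IFN-γ and washout. Libraries of D28 and D28WO may therefore share a source culture. The methods list both lines as commonly misidentified, and neither was authenticated by short tandem repeats.

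Each interferon family signals through a pair of chains. IFN-γ binds IFNGR1, which carries JAK1, and the complex is completed by IFNGR2, which carries JAK2. Type I interferons such as IFN-β bind IFNAR2, which carries JAK1, together with IFNAR1, which carries TYK2. Type III interferons bind IFNLR1 together with IL10RB, a chain shared with the receptors for IL-10, IL-22 and IL-26. The kinases phosphorylate transcription factors of the STAT family, which bind gamma-activated sites (GAS) or, joined by IRF9, interferon-stimulated response elements (ISRE) in target genes. IFNLR1 is known for its restriction largely to epithelial cells, whereas the IFN-γ and type I receptors are found on most nucleated cells.

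Of the 6 genes, 4 lie in a cluster on chromosome 21 and 2 elsewhere (GENCODE 44, GRCh38). In chromosomal order, the plus-strand genes of the cluster are IFNAR2 (ENSG00000159110, chromosome 21, 33205282 to 33265675), IL10RB (ENSG00000243646, 33266367 to 33311420), IFNAR1 (ENSG00000142166, 33324387 to 33359864) and IFNGR2 (ENSG00000159128, 33403413 to 33479348), which together span 274.1 kb. IFNGR1 (ENSG00000027697) lies on the minus strand of chromosome 6, from 137197483 to 137219449. IFNLR1 (ENSG00000185436) lies on the minus strand of chromosome 1, from 24154168 to 24187959.

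A RefSeq promoter (GRCh38.p14) was matched for 5 of the 6 genes, in 7 windows of 280 bases that run from 250 bases before a transcription start to 30 after it. The stretches below are shown because they are the promoters of the chain with the largest change in U87 (IFNLR1), of its partner IL10RB, and of IFNGR2, which fell at D3 and D28 in both lines. Each is written 5′ to 3′ on the strand of its gene, with a match to the GAS letters TTCNNNGAA in capitals. IFNLR1 is shown over the whole window (minus strand, chr1:24187260-24187539), and IL10RB (plus strand, chr21:33266177-33266396) and IFNGR2 (plus strand, chr21:33403223-33403442) from 190 bases before the start.
IFNLR1: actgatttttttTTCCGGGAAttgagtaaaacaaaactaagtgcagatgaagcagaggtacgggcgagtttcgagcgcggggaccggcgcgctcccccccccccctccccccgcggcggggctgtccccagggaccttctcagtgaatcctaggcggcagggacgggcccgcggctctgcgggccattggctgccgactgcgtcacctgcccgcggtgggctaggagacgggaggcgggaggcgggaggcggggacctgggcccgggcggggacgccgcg
IL10RB: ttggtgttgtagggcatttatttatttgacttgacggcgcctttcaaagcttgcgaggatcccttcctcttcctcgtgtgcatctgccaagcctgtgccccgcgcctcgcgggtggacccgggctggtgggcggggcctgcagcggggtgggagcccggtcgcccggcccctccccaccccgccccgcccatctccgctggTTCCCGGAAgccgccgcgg
IFNGR2: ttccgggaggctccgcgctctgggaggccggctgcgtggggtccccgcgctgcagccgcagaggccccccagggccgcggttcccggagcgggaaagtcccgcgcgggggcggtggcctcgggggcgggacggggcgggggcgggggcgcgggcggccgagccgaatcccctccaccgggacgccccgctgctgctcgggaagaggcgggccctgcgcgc
The GAS match of IFNLR1, TTCCGGGAA, lies at bases -238 to -230 from the start, and that of IL10RB, TTCCCGGAA, at bases 12 to 20 after it. The letters TTCNNNGAA, which read the same on both strands, were held by 7.3% of 35116 promoter windows of this length, and by neither window of IFNGR1, neither of IFNAR1 nor that of IFNGR2. The ISRE-like letters GAAANNGAAA, searched on both strands, were in none of the 7 windows and in 3.39% of all. A match of letters describes the sequence and does not show that a factor binds there.

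RNA levels were deposited as TPM, which scales a transcript by its length and every library to 1000000, so that the levels of different genes can be set side by side within a line but the sequencing depth is unknown. The order of the chains and the size of their ratios rest on this scaling by length, which was taken from the name of the unit. In changes between groups a chain's own length cancels, but the scaling of each library also uses the lengths of all genes. Genes above 0 numbered 24223 to 28649 per library in U87 and 24450 to 30246 in U251. The exposure was checked with IRF1, GBP1, GBP2, TAP1, PSMB9 and B2M, which are induced by IFN-γ in most cells. In U87 the mean log2(TPM + 1) of these genes was above the Untreated mean by 1.70 to 1.81 at D3, 1.78 to 1.90 at D28 and 1.84 to 1.96 at D28WO, but by only -0.018 to 0.028 at D14. In U251 it was above by 1.92 to 2.16 at D3, by 0.976 to 1.03 at D14, by 2.05 to 2.12 at D28 and by 2.20 to 2.28 at D28WO. The D14 libraries of U87 thus stood at the level of Untreated cells, and the washout libraries of both lines as high as those with continued IFN-γ. Each result against Untreated is therefore given by time point, and those that pool exposed libraries are given with and without D14. Because RNA of whole cultures was measured, fewer cells of a type and less RNA per cell cannot be told apart. Of the defining markers, VIM (1307 TPM in untreated U87 and 1141 in untreated U251) and CD44 were high in both lines, and SOX2 was 159 TPM in untreated U251 and 0.219 in untreated U87. PTPRC, a marker of leukocytes, reached at most 1.47 TPM, and CD3E, a marker of T cells, at most 0.308 TPM.

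**Figure D1:**
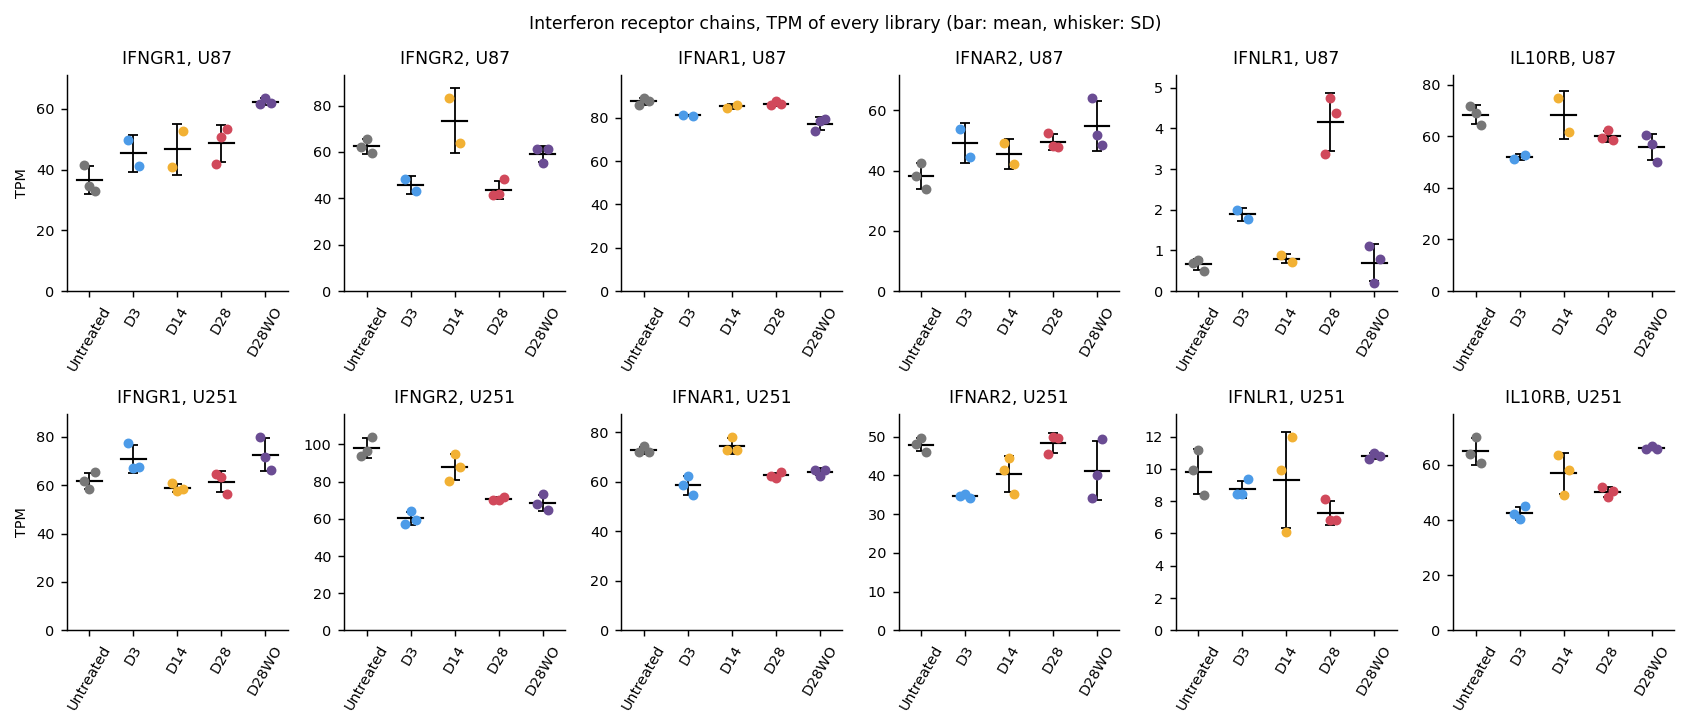
TPM of the 6 receptor chains (y axis, linear, from 0) in every library of the 5 groups (x axis), with U87 in the upper and U251 in the lower row; points are libraries, bars are group means and whiskers SD. IFNLR1 is the lowest chain in both lines and rose to 3.36 to 4.76 TPM at D28 in U87, and IFNGR2 of U251 dropped from 94.0 to 104 TPM in Untreated to 57.4 to 64.2 TPM at D3.

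Before treatment IFNLR1 was far below the other 5 chains. In untreated U87 the order from high to low was IFNAR1 (87.6 ± 1.57 TPM, SD, n = 3), IL10RB (68.3 ± 3.71), IFNGR2 (62.4 ± 3.08), IFNAR2 (38.2 ± 4.37), IFNGR1 (36.5 ± 4.57) and IFNLR1 (0.654 ± 0.145). The ranges of IL10RB and IFNGR2 overlapped, as did those of IFNAR2 and IFNGR1, so these neighbours cannot be ordered. In untreated U251 the order was IFNGR2 (98.1 ± 5.24 TPM), IFNAR1 (72.7 ± 1.40), IL10RB (64.9 ± 4.82), IFNGR1 (61.9 ± 3.38), IFNAR2 (47.9 ± 1.71) and IFNLR1 (9.81 ± 1.40), and there only IL10RB and IFNGR1 overlapped. IFNLR1 was last in all 10 groups. IFNAR1 was first in all 5 groups of U87, whereas in U251 IFNGR2 was first in Untreated, D14 and D28 and IFNGR1 in D3 and D28WO. Of the 25 pairs of neighbours in the order over the 5 groups, the ranges overlapped in 11 pairs of U87 and 7 of U251. The tables of the lines were normalized separately, so the levels of the lines stand side by side and were not tested against each other.

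Changes were tested on log2(TPM + 1) with limma, with Benjamini-Hochberg adjustment over all genes tested (22918 in U87, 23667 in U251), and a gene passed with an adjusted p under 0.05. Against Untreated, the passing share of all U87 genes was 16.7% for D3, 5.16% for D14, 23.8% for D28 and 42% for D28WO. Of the 6 chains, 2 fell at D3, none passed at D14, 2 rose and 1 fell at D28, and 2 rose and 2 fell at D28WO. In U251 the passing share of all genes was 40.9% for D3, 21.2% for D14, 40.6% for D28 and 27.7% for D28WO. There 4 of 6 chains fell at D3, none passed at D14, 3 fell at D28 and 2 fell at D28WO, and no chain rose against Untreated at any time. With shares of passing genes this high, the number of chains that passed is not set apart from that of other genes, and the directions and sizes are the description given here. In U87 the chains had a median log2 fold change of 0.099 (D3), 0.17 (D14), 0.18 (D28) and -0.034 (D28WO), where that of all genes was 0.20, 0.15, 0.19 and 0.25. In U251 it was -0.38, -0.13, -0.29 and -0.077 in the same order, where that of all genes was 0.13, 0.096, 0.16 and 0.015. Because the median gene was above 0, a chain that fell lay further below the other genes than its fold change, and one that rose lay less far above them.

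**Figure D2:**
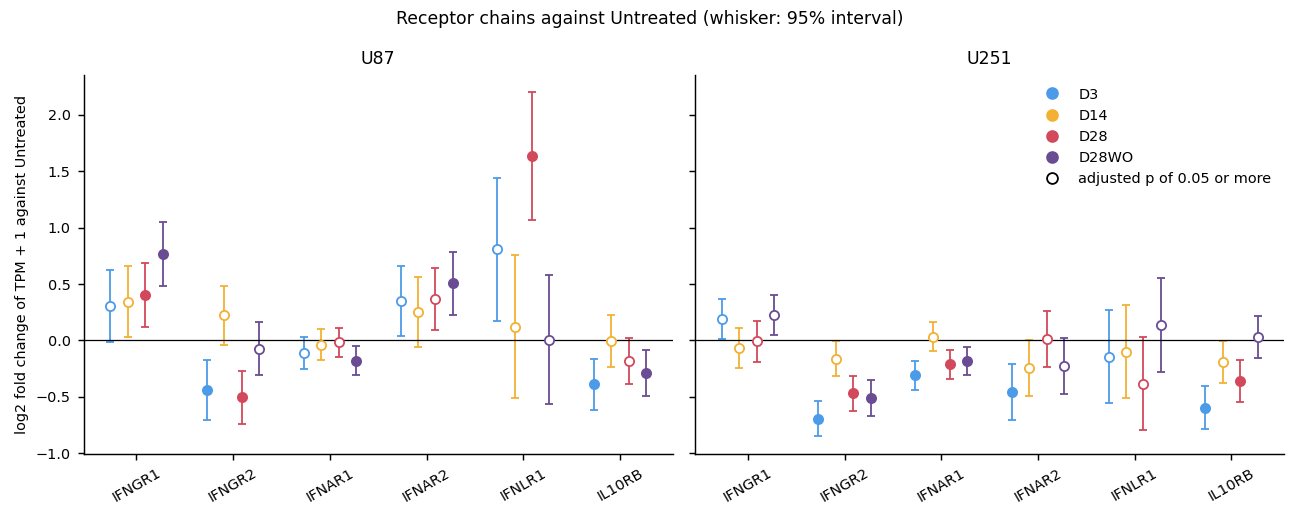
Log2 fold change of TPM + 1 against Untreated (y axis) with its 95% confidence interval for the 6 chains (x axis) at D3, D14, D28 and D28WO in U87 and U251; filled points passed an adjusted p of 0.05. In U87, IFNLR1 stands at 1.64 at D28, and in U251 every filled point lies below 0.

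Of the chains of the IFN-γ receptor, IFNGR2 fell at D3 and D28 in both lines, and IFNGR1, the ligand-binding chain, rose at D28 and D28WO in U87. IFNGR2 of U251 measured 94.0, 96.4 and 104 TPM in the Untreated libraries, and at D3 it measured 57.4, 64.2 and 59.2 TPM. Neither range touched the other, and the log2 fold change was -0.69 (95% interval -0.85 to -0.54, adjusted p = 4.3e-06, limma). At D14 the libraries measured 80.6, 94.7 and 87.8 TPM, overlapping Untreated (-0.16, adjusted p = 0.134, limma). From D3 to D14 IFNGR2 rose by 0.53 (adjusted p = 1.2e-04, limma), at a time when the IFN-γ response genes also stood closer to Untreated. At D28 it was again lower, at 70.1, 69.9 and 71.7 TPM, a log2 fold change of -0.47 (adjusted p = 1.5e-04, limma). After washout it measured 67.9, 73.2 and 64.6 TPM and was still below Untreated by a log2 fold change of -0.51 (adjusted p = 1.2e-04, limma). The difference of D28WO from D28 was -0.043 with a 95% interval of -0.20 to 0.11 (adjusted p = 0.708, limma), and its sign turned with median-ratio size factors (0.045).

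In U87 IFNGR2 also fell at D3 and D28 and rose from D3 to D14, but after washout it overlapped Untreated. The Untreated libraries measured 62.0, 65.6 and 59.5 TPM, the D3 libraries 48.5 and 43.0, and the D14 libraries 83.4 and 63.7. The D28 libraries measured 41.2, 41.7 and 48.1 TPM and the D28WO libraries 61.2, 55.3 and 61.1. D3 and D28 thus lay below all Untreated libraries, while D14 and D28WO overlapped them. The log2 fold change was -0.44 at D3 (adjusted p = 0.0295), -0.51 at D28 (95% interval -0.74 to -0.27, adjusted p = 0.0068) and -0.075 at D28WO (95% interval -0.31 to 0.16, adjusted p = 0.612, limma). IFNGR2 rose by 0.66 from D3 to D14 (adjusted p = 0.0137), fell by 0.73 from D14 to D28 (adjusted p = 0.00445) and was higher by 0.43 at D28WO than at D28 (adjusted p = 0.017, limma). The D3 call did not hold when any single one of the 5 libraries was left out (adjusted p 0.0507 to 0.168), with no filter (0.0853) or with only the 2 groups in the fit (0.0621). Without D14 replicate 2 the adjusted p was 0.134 for D14 against D3 (without D3 replicate 3, 0.103) and 0.0708 for D28 against D14, and with only the 2 groups in the fit it was 0.158 and 0.0783. The call of D28WO against D28 was lost without D28 replicate 1 or 2 or D28WO replicate 1 or 3 (highest adjusted p 0.0659) and with no filter (0.0562). The fall at D28 passed under every omission of 1 library.

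IFNGR1 of U87 measured 41.7, 34.7 and 33.1 TPM in Untreated, 41.7, 50.9 and 53.3 at D28, and 61.6, 63.7 and 61.9 at D28WO. The washout libraries were the highest of the line and lay above every library with continued exposure. The log2 fold change was 0.77 at D28WO (95% interval 0.48 to 1.05, adjusted p = 6.6e-04) and 0.40 at D28 (95% interval 0.12 to 0.69, adjusted p = 0.0427, limma). The D28 call was lost with quantile normalization (0.19, adjusted p = 0.359), with size factors (0.22, adjusted p = 0.247), with no filter (adjusted p = 0.144), a replicate block (0.0708), array weights (0.0764) or 2 groups per fit (0.089), and without Untreated replicate 2 or 3 or D28 replicate 2 or 3 (adjusted p 0.104 to 0.144). At D3 (49.6 and 41.1 TPM) and D14 (40.8 and 52.6 TPM) the change of IFNGR1 did not pass (0.31 and 0.34, adjusted p = 0.171 and 0.187, limma), and both groups overlapped Untreated.

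IFNGR1 of U251 did not pass against Untreated at any time. It measured 61.8, 58.5 and 65.3 TPM in Untreated, 77.5, 67.1 and 67.7 at D3, and 79.9, 71.9 and 66.2 at D28WO. Both exposed groups lay above the Untreated range, with log2 fold changes of 0.19 (adjusted p = 0.0876) and 0.23 (adjusted p = 0.0604, limma), of which the second passed without D28WO replicate 3 (0.29, adjusted p = 0.0318). At D14 (57.6 to 60.9 TPM) and D28 (56.5 to 64.7 TPM) it overlapped Untreated. From D3 to D14 it fell by 0.26 (adjusted p = 0.0377, limma), opposite to IFNGR2 at that step, and the call was lost without D3 replicate 1 or any one D14 library (adjusted p 0.0567 to 0.146), with no filter (0.0872) and with 2 groups per fit (0.081). D28WO was above D28 by 0.24 (adjusted p = 0.0489) and above D14 by 0.29 (adjusted p = 0.019, limma). The first call was lost without any one of 5 libraries, all but D28WO replicate 3 (highest adjusted p 0.198), and with a pseudocount of 0.1 (0.0513), no filter (0.106), 2 groups per fit (0.093) or no D14 libraries (0.0715), and the second without D14 replicate 2 or 3 or D28WO replicate 1 (highest 0.0902).

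The balance of the chains was also measured within each library, where the scaling of libraries cancels. IFNGR2 over IFNGR1 was 1.72 ± 0.211 (SD, n = 3) in untreated U87. It was 1.01 ± 0.0480 (n = 2) after 3 days and 1.63 ± 0.588 (n = 2) after 14 days, and 0.904 ± 0.0834 with continued exposure to day 28 and 0.950 ± 0.0704 after washout (n = 3 each). In U251 the ratio was 1.59 ± 0.0618 in Untreated and 0.858 ± 0.109 after 3 days, 1.49 ± 0.160 after 14 days, 1.15 ± 0.101 after 28 days and 0.948 ± 0.0879 after washout (n = 3 each). The second chain thus exceeded the first in untreated cells and came near to parity or below at D3 and D28WO in both lines. All exposed libraries together were lower than Untreated by 0.71 on the log2 scale in U87 (9 of 10 libraries below all Untreated libraries, 1 above, two-sided exact permutation p = 0.028) and by 0.55 in U251 (11 of 12 below, p = 0.0176). Over the 6 tests of chain pairs in both lines, the adjusted p was 0.0559 and 0.0527, so neither passed. These tests count every library as independent, although D28 and D28WO may share source cultures. Without the D14 libraries, an alternative chosen after the data were seen, the differences were -0.86 and -0.70, with an adjusted p of 0.0242 in both lines by the same exact permutation test. D14 held the only exposed libraries not below all Untreated ones, so without it this p had to be the smallest the design allows. It therefore adds no support. Leaving out only D14 replicate 2 had the same effect in U87 (-0.82, adjusted p = 0.0273). So did D14 replicate 2 or 3 in U251 (-0.61 and -0.59, adjusted p = 0.021 and 0.0495, exact permutation tests). Without D14 replicate 2 the exposed libraries again lay below all Untreated ones in both lines.

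**Figure D3:**
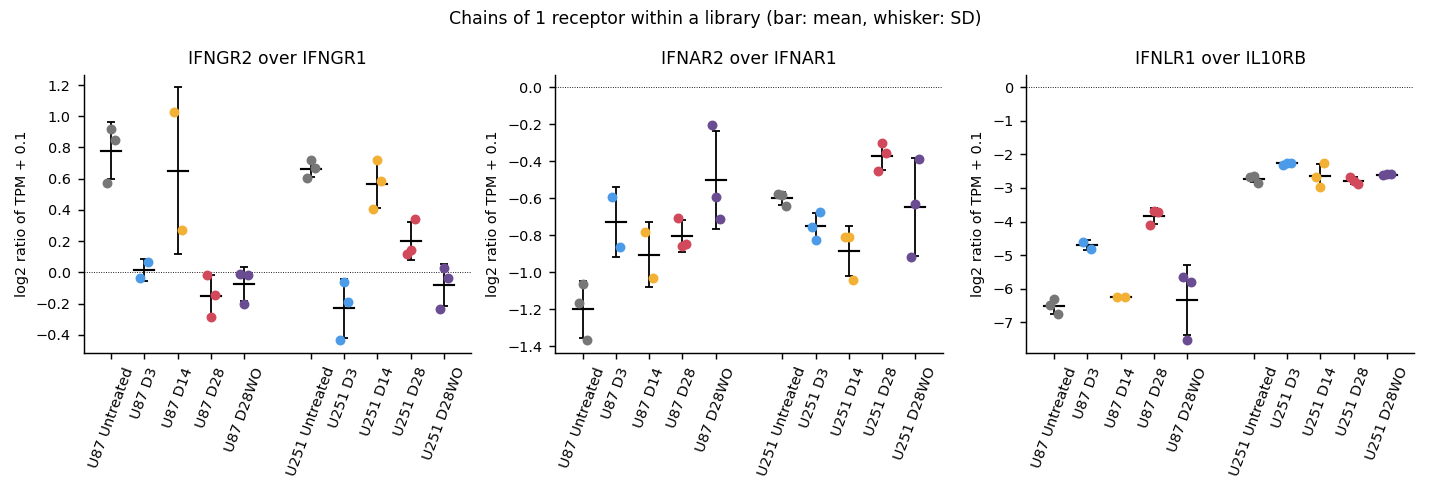
Log2 ratio of TPM + 0.1 of the 2 chains of a receptor within each library (y axis) by line and group (x axis); points are libraries, bars group means, whiskers SD, and the dotted line is an equal level. IFNGR2 over IFNGR1 drops from a mean of 0.78 (log2) in untreated U87 and 0.67 in untreated U251 to near 0 at D3 and D28WO, and at D14 its mean lies near that of Untreated in both lines, with 1 U87 library above and 1 below all Untreated libraries, and 2 of 3 U251 libraries below them.

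Of the chains of the type I receptor, IFNAR1 fell in U251 at D3, D28 and D28WO and in U87 at D28WO, and IFNAR2 fell in U251 at D3 and rose in U87 at D28WO. IFNAR1 of U251 measured 71.8, 74.3 and 72.1 TPM in Untreated and 58.7, 62.3 and 54.7 at D3. It measured 72.6, 78.0 and 72.6 TPM at D14, 62.4, 61.6 and 63.7 at D28, and 64.8, 62.4 and 64.8 at D28WO. All groups but D14 lay below the Untreated range. The log2 fold change was -0.31 at D3 (95% interval -0.44 to -0.18, adjusted p = 8.1e-04), -0.21 at D28 (adjusted p = 0.0104) and -0.18 at D28WO (adjusted p = 0.0336, limma). IFNAR1 rose by 0.34 from D3 to D14 (adjusted p = 8.0e-04), fell by 0.25 from D14 to D28 (adjusted p = 0.00895) and was lower by 0.21 at D28WO than at D14 (adjusted p = 0.0157, limma). The D28WO call against Untreated was lost without any one of its 6 libraries (adjusted p 0.0607 to 0.107). The call of D28WO against D14 was lost without D14 replicate 2 (0.0674) or D28WO replicate 2 (0.0577) and with size factors (0.114).

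IFNAR1 of U87 was the steadiest chain, between 74.1 and 89.3 TPM in all 13 libraries. It fell at D28WO, with libraries of 74.1, 78.4 and 79.4 TPM against 86.1, 89.3 and 87.5 in Untreated, by a log2 fold change of -0.18 (95% interval -0.30 to -0.054, adjusted p = 0.0252, limma). This call was lost without Untreated replicate 2 (adjusted p = 0.0681) or D28WO replicate 1 (0.104) and with 2 groups per fit (0.0676). At D3 the libraries ranged from 81.0 to 81.3 TPM, also below all Untreated ones, but the change of -0.11 did not pass (adjusted p = 0.262, limma). Relative to the median of all genes that change was -0.31. At D28 the difference was -0.019 with a 95% interval of -0.14 to 0.11 (adjusted p = 0.855, limma).

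IFNAR2 of U87 measured 38.3, 42.6 and 33.9 TPM in Untreated and 64.2, 51.9 and 48.4 at D28WO. It rose there by 0.51 (95% interval 0.23 to 0.78, adjusted p = 0.00732, limma). That call was lost with quantile normalization (0.26, adjusted p = 0.133) and with size factors (0.27, adjusted p = 0.0823). At D28 (52.5, 48.2 and 47.8 TPM) and D3 (53.8 and 44.5 TPM) the libraries also lay above all Untreated ones, but the changes of 0.37 (adjusted p = 0.0546) and 0.35 (adjusted p = 0.111, limma) did not pass. The D28 change passed without Untreated replicate 2 (0.45, adjusted p = 0.0415), with a filter at 1 TPM (0.0478) and with a replicate block (0.0279), and that of D3 with the block (0.0423). Relative to the median of all genes the changes were smaller, 0.155 at D3 and 0.179 at D28.

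IFNAR2 of U251 fell at D3. It measured 48.0, 49.6 and 46.2 TPM in Untreated and 34.7, 35.1 and 34.2 at D3, a log2 fold change of -0.46 (95% interval -0.70 to -0.21, adjusted p = 0.00577, limma). At D14 it measured 41.4, 44.5 and 35.2 TPM and at D28 45.5, 49.9 and 49.7, while the D28WO libraries spread from 34.2 to 49.4. All 3 libraries of D14, like those of D3, lay below the Untreated range, and D14 was not distinguished from D3 (0.21, 95% interval -0.039 to 0.46, adjusted p = 0.211, limma). Neither D14 (-0.25, adjusted p = 0.151) nor D28WO (-0.23, adjusted p = 0.172, limma) passed, and D28WO did without its replicate 3 (-0.36, adjusted p = 0.0227). The D28 libraries overlapped Untreated, with a difference of 0.013 and a 95% interval of -0.23 to 0.26 (adjusted p = 0.951, limma) that turned negative with quantile normalization (-0.057) and size factors (-0.11).

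The ratio of IFNAR2 over IFNAR1 in U87 was 0.437 ± 0.0457 (SD, n = 3) in Untreated, and its means were 0.606, 0.536, 0.573 and 0.714 in D3, D14, D28 and D28WO (2, 2, 3 and 3 libraries). All 10 exposed libraries lay above all 3 Untreated libraries, a difference of 0.48 on the log2 scale (two-sided exact permutation p = 0.00699, the smallest the design allows, adjusted p = 0.042 over 6 tests). Without D14 the difference was 0.53 (adjusted p = 0.0242, exact permutation test). Without D28WO it was 0.39 and the adjusted p 0.05. The call was lost in 11 of 13 omissions of 1 library, all but those of D14 replicate 2 and D28WO replicate 2 (adjusted p 0.0273 to 0.0909). In all of these the exposed libraries stayed above all Untreated ones, and p was the smallest that the remaining libraries allow. The losses thus follow from fewer libraries and the adjustment, and do not show a weaker separation. In U251 the ratio was 0.659 ± 0.0157 (n = 3) in Untreated and fell and rose around it, from a mean of 0.542 at D14 to 0.773 at D28. There the exposed libraries differed from Untreated by -0.063 on the log2 scale (7 of 12 below and 4 above all Untreated libraries, exact permutation p = 0.681), and the sign turned without D14 (0.011).

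The largest change of any chain was that of IFNLR1 in U87, the specific chain of the type III receptor. It measured 0.695, 0.775 and 0.493 TPM in Untreated, 2.00 and 1.78 at D3, 0.878 and 0.717 at D14, 3.36, 4.76 and 4.37 at D28, and 1.10, 0.208 and 0.795 at D28WO. D3 and D28 lay above all Untreated libraries, D28 highest, and D14 and D28WO overlapped Untreated. The mean at D28 was 6.37 times that of Untreated, and the log2 fold change of TPM + 1, which understates the change of a gene this low, was 1.64 (95% interval 1.07 to 2.21, adjusted p = 0.00121, limma). IFNLR1 also rose by 1.51 from D14 to D28 (adjusted p = 0.0115) and fell by 1.63 from D28 to D28WO (adjusted p = 0.00154, limma). These 3 changes were the only ones of any chain that also passed the study's stricter limit of an absolute log2 fold change over 1, which 7.38% of all genes met at D28 against Untreated, 2.12% from D14 to D28 and 5.53% between D28 and D28WO. At D3 the change of 0.81 (adjusted p = 0.0791, limma) did not pass. The rise from D14 to D28 was lost without either D14 library (adjusted p = 0.0691 and 0.0938), with a pseudocount of 0.1 (0.0603) and with 2 groups per fit (0.078), and the other called changes of IFNLR1 held under every single omission. The washout level was not distinguished from Untreated (0.0067, 95% interval -0.56 to 0.58, adjusted p = 0.996), and its sign turned with quantile normalization (-0.49), size factors (-0.086), a pseudocount of 0.1 (-0.11) and array weights (-0.011). The IFN-γ response genes were high in the same D28WO libraries.

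IFNLR1 of U251 started higher and showed no passing change. It measured 9.92, 11.2 and 8.36 TPM in Untreated, 8.45, 8.44 and 9.34 at D3, and 9.93, 6.12 and 12 at D14. At D28 it measured 8.11, 6.85 and 6.83 TPM, below all Untreated libraries, and at D28WO 10.6, 11 and 10.8. The D28 difference was -0.38 with a 95% interval of -0.80 to 0.031 (adjusted p = 0.132, limma), and it passed with quantile normalization (-0.79, adjusted p = 0.00329), with size factors (-0.49, adjusted p = 0.0484) and without D14 (adjusted p = 0.0497). D28WO lay above D28 in all 3 libraries by 0.52 (95% interval 0.10 to 0.93, adjusted p = 0.0585, limma), which passed with quantile normalization (0.91, adjusted p = 0.00201), size factors (0.60, adjusted p = 0.026), array weights (0.0336), 2 groups per fit (0.0315) and without D14 (0.0177).

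IL10RB, the shared chain, fell in both lines. In U251 it measured 63.9, 70.1 and 60.6 TPM in Untreated, 42.2, 40.4 and 45.0 at D3, 63.7, 49.1 and 58.1 at D14, 51.9, 48.4 and 50.6 at D28, and 65.7, 66.7 and 65.9 at D28WO. D3 and D28 were below all Untreated libraries and D28WO was within their range. The log2 fold change was -0.60 at D3 (95% interval -0.79 to -0.41, adjusted p = 9.9e-05), -0.36 at D28 (adjusted p = 0.00497) and 0.029 at D28WO (95% interval -0.16 to 0.22, adjusted p = 0.863, limma). The last value turned negative with quantile normalization (-0.0072), size factors (-0.0034) and array weights (-0.0038). IL10RB rose by 0.41 from D3 to D14 (adjusted p = 0.00385) and was higher by 0.39 at D28WO than at D28 (adjusted p = 0.00456, limma). Unlike IFNGR2, which stayed low after washout of U251, IL10RB was thus back in the Untreated range, although the difference between these genes was not tested.

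In U87 IL10RB measured 71.6, 69.0 and 64.3 TPM in Untreated, 51.1 and 52.6 at D3, and 60.4, 56.8 and 50.2 at D28WO. Both exposed groups lay below all Untreated libraries. It fell by 0.39 at D3 (adjusted p = 0.0262) and by 0.29 at D28WO (adjusted p = 0.0254, limma). The D3 call was lost without any one of Untreated replicates 1 and 2 and D3 replicates 2 and 3 (adjusted p 0.0521 to 0.147) and with no filter (0.0622) or 2 groups per fit (0.0644), and the D28WO call without Untreated replicate 1 or 2 or D28WO replicate 3 (0.061 to 0.104) and with no filter (0.0584). At D28 it measured 58.5 to 62.5 TPM, also below Untreated, but the change of -0.18 (adjusted p = 0.18, limma) did not pass, except with size factors (-0.37, adjusted p = 0.0181). At D14 it was 74.9 and 61.8 TPM, with a difference of -0.0052 (95% interval -0.23 to 0.22, adjusted p = 1, limma).

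IFNLR1 over IL10RB was 0.0110 ± 0.00173 (SD, n = 3) in untreated U87 and 0.0708 ± 0.0107 (n = 3) at D28, so that even at its highest the specific chain was a small part of the shared one. Over all exposed U87 libraries the ratio differed from Untreated by 1.28 on the log2 scale (9 of 10 above, 1 below, exact permutation p = 0.126, adjusted p = 0.189). Without D28WO replicate 2, the 1 library below, it differed by 1.53 (adjusted p = 0.0273, exact permutation test). That omission made the separation complete, so the p had to be the smallest the design allows. Without D14 it was also 1.53 (adjusted p = 0.164, exact permutation test). In untreated U251 the ratio was 0.152 ± 0.0111 (n = 3), and over the exposed libraries it differed by 0.15 on the log2 scale (exact permutation p = 0.347, adjusted p = 0.417), and without D14 by 0.17 (adjusted p = 0.273).

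Between exposed groups, 5 of 24 values (6 chains in 4 comparisons) passed in U87 and 11 of 24 in U251. In U87 the chains that passed were 1 of 6 for D14 against D3 (4.79% of all genes), 2 for D28 against D14 (4.06%), 2 for D28WO against D28 (18.3%) and none for D28WO against D14 (25.9%). In U251 they were 4 for D14 against D3 (25.5%), 2 for D28 against D14 (20.8%), 2 for D28WO against D28 (29.1%) and 3 for D28WO against D14 (26.4%). Single libraries at D14 weighed on these counts. Without D14 replicate 3 of U87, 3 chains passed for D28WO against D14 (IFNGR1, IFNGR2 and IL10RB, adjusted p = 0.0388, 0.0268 and 0.0363), and without D14 replicate 2 of U251 4 passed for D28 against D14 (IFNLR1 and IL10RB also, adjusted p = 0.0385 and 0.0359, limma). The 4 chains of U251 that passed from D3 to D14 were IFNGR2, IFNAR1 and IL10RB, which rose, and IFNGR1, which fell.

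Across libraries the chains of the chromosome 21 cluster were compared with each other and with their neighbours. The Pearson correlation of IFNGR2 with IFNAR1 over the 15 U251 libraries was 0.902, the highest of the 15 pairs of chains in either line, and over the 13 U87 libraries it was -0.024. In U87 the lowest value was that of IFNGR2 with IFNLR1, -0.728, and IFNAR1 with IFNAR2 gave -0.700. These libraries share their group structure and a table scaled to a common sum, so the values describe the pattern only. Among 15 other genes of the region, 14 were tested in U87, of which 0 rose and 1 fell at D3 and 1 rose and 2 fell at D28 (16.7% and 23.8% of all genes passed). In U251 13 were tested, of which 5 rose and 2 fell at D3 and 2 rose and 2 fell at D28 (40.9% and 40.6% of all genes passed). The neighbours that fell at D3, as the chains did, were TMEM50B (-0.42) and CRYZL1 (-0.40). All 4 chains of the cluster fell at D3 in U251, whereas the median of the 13 neighbours was -0.0026. SYNJ1, a phosphatase of vesicle recycling within the region, rose by 1.02 at D3 in U251 (adjusted p = 2.2e-05, limma). OLIG2, a transcription factor of the oligodendrocyte lineage, rose by 1.78 at D28WO in U87 (adjusted p = 0.00217, limma).

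**Figure D4:**
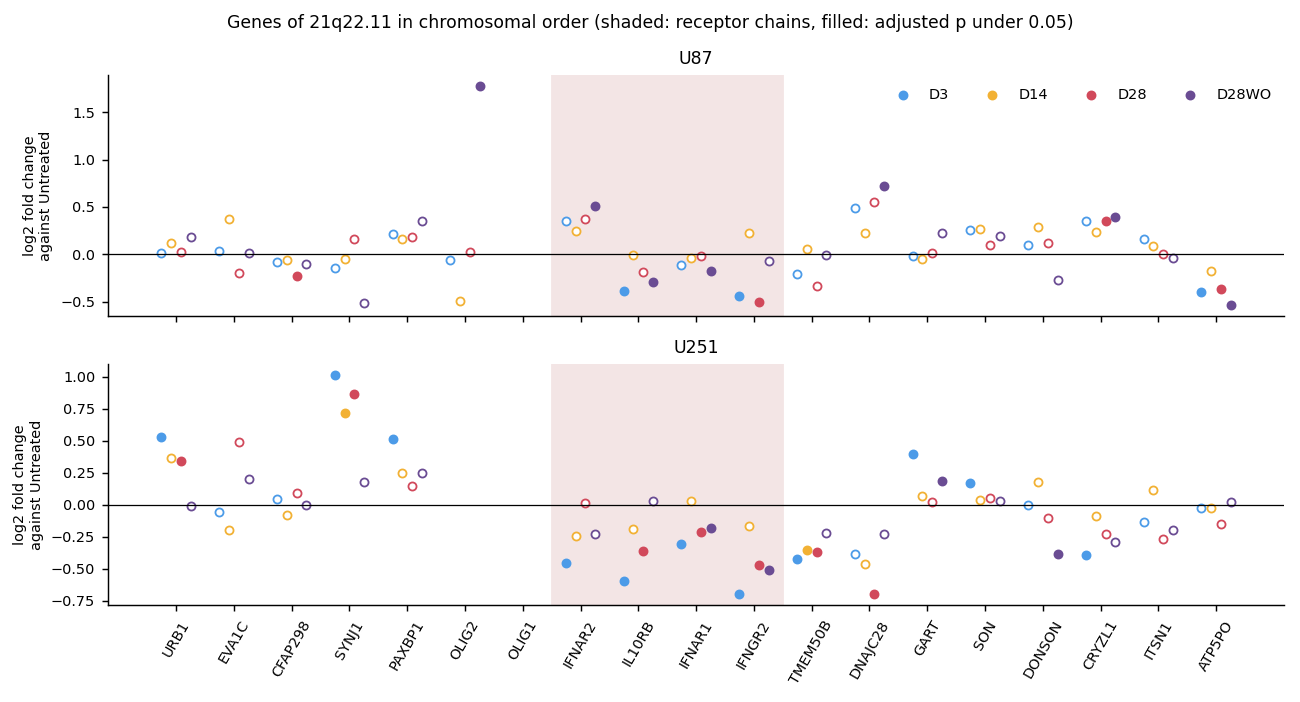
Log2 fold change of TPM + 1 against Untreated (y axis) for the genes around the receptor cluster in chromosomal order (x axis, not to scale), with U87 above and U251 below; colours give D3, D14, D28 and D28WO, filled points passed an adjusted p of 0.05, and shading marks IFNAR2, IL10RB, IFNAR1 and IFNGR2. At D3 in U251 the 4 chains lie between -0.69 and -0.31, while SYNJ1 stands at 1.02.

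Some reads of these genes can be shared. The readthrough gene IFNAR2-IL10RB shares exon bases with 14.7% of those of IFNAR2 and 21.6% of those of IL10RB, and IL10RB-DT, on the opposite strand, overlaps 13% of those of IFNAR2. TMEM50B, also on the opposite strand, overlaps 380 exon bases of IFNGR2 (15%), and whether counting used strand is not stated. IFNAR2-IL10RB measured 25.8 ± 1.97 TPM in untreated U87 and 31.2 ± 5.26 in untreated U251 (SD, n = 3 each), and its only passing change was a fall by 0.50 at D28 in U251 (adjusted p = 0.0277, limma). TMEM50B fell in U251 by 0.42 at D3, 0.35 at D14 and 0.37 at D28 (adjusted p = 0.00367, 0.0213 and 0.0095, limma), from 109 ± 3.15 TPM in Untreated, and passed at no time in U87. At D14 the fall of TMEM50B passed and that of IFNGR2 did not. How far shared reads enter the values of the chains was not tested. IFNAR1 shares no exon base with IFNGR2.

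Among the JAK kinases, JAK2, which serves IFNGR2, rose in U87 by 0.80 at D3, 1.15 at D28 and 1.59 at D28WO (adjusted p = 0.0104, 4.3e-04 and 1.3e-05, limma), and its D14 change of 0.45 (adjusted p = 0.152) did not pass. In U251 JAK2 had a mean of 9.93 TPM in Untreated, and of 59.5, 14.4, 56.6 and 47.9 TPM in D3, D14, D28 and D28WO. The log2 fold changes were 2.53, 0.56, 2.46 and 2.23, of which all but that of D14 passed (adjusted p = 0.0541 at D14, limma). JAK1, which serves IFNGR1 and IFNAR2, rose in U87 by 0.28 at D3 and D28 and 0.37 at D28WO, whereas in U251 it fell by 0.28 at D3, 0.27 at D14 and 0.28 at D28. JAK3, the kinase of the common gamma chain, rose by 1.61 at D28 in U87 (adjusted p = 0.00404, limma). TYK2 rose in U251 by 0.33 at D3 and 0.25 at D28. IFNGR2 and its kinase JAK2 thus moved in opposite directions at D3 and D28 in both lines.

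The 4 IRF genes tested all rose at D3, D28 and D28WO in U87 and none passed at D14, and 3, 2, 3 and 3 rose at the 4 times in U251. Of all genes, 16.7%, 5.16%, 23.8% and 42% passed at these times in U87 and 40.9%, 21.2%, 40.6% and 27.7% in U251.

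Of 9 inhibitors of receptor signalling, 2, 1, 3 and 3 rose in U87 at D3, D14, D28 and D28WO and none fell, numbers near the shares of all genes. In U251 4 rose and 2 fell at D3, 5 rose at D14, 6 rose and 3 fell at D28, and 5 rose at D28WO. SOCS1, which blocks the kinases of the IFN-γ receptor, rose in U251 by 3.26, 1.39, 3.61 and 4.13 at the 4 times. USP18, which binds IFNAR2 and restrains type I signalling, rose there by 1.41, 1.43, 1.93 and 1.73. Of 3 genes for turnover of IFNAR1 protein, 1, 0, 1 and 3 rose in U87 at the 4 times and 1 at each time in U251, and none fell. Where 1 rose it was PRKD2, a kinase that promotes uptake of IFNAR1, and at D28WO in U87 BTRC (0.61), FBXW11 (0.29) and PRKD2 (0.48) all passed, where 42% of all genes did and IFNAR1 was lower.

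**Figure D5:**
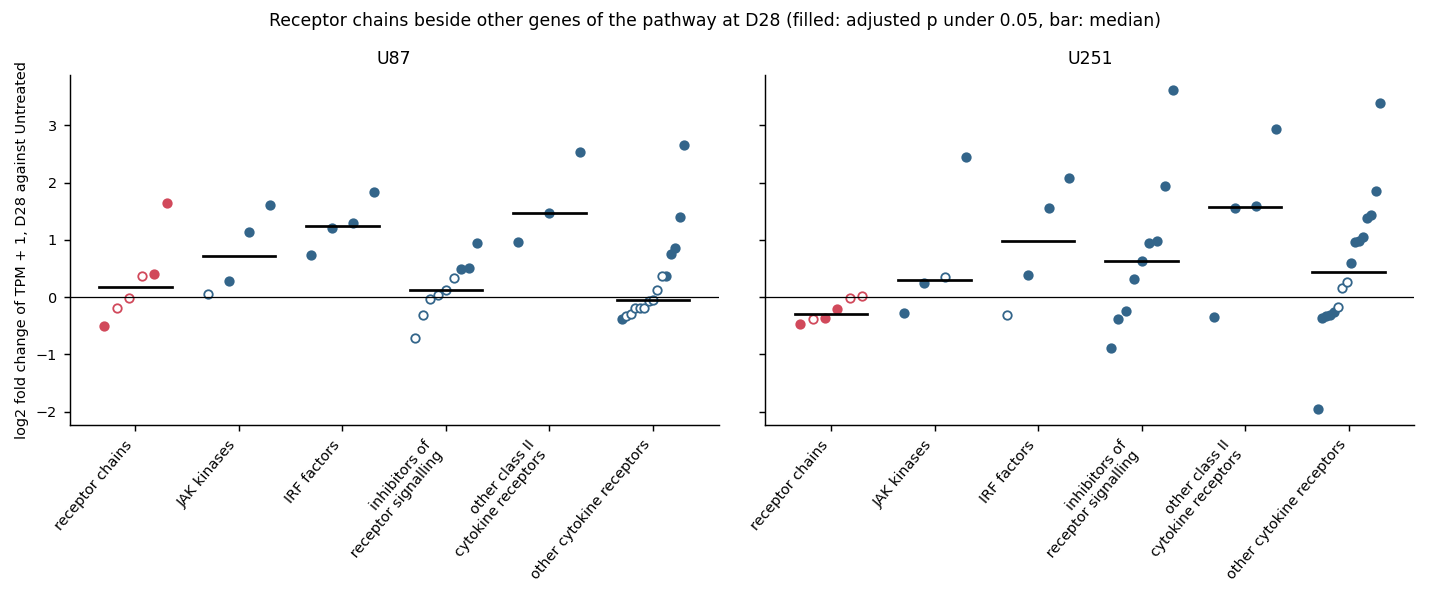
Log2 fold change of TPM + 1 at D28 against Untreated (y axis) for the receptor chains and 5 other gene lists (x axis) in U87 and U251; each point is a gene, filled points passed an adjusted p of 0.05, and bars are medians. The median of the chains is 0.18 in U87 and -0.29 in U251, and that of the JAK kinases 0.72 and 0.30.

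Other receptors of the same structural class (class II cytokine receptors) mostly rose at D3 and D28, and F3 went both ways. IL22RA1, the partner of IL10RB in the IL-22 receptor, rose by 1.92 at D3 and 2.53 at D28 in U87 and by 1.17 and 1.60 in U251. IL20RB, a chain of the receptors for IL-19, IL-20 and IL-24, rose by 1.34 and 1.47 in U87 and by 2.33 and 2.93 in U251. IL10RA, the partner of IL10RB in the IL-10 receptor, had a mean of 0.020 TPM in untreated U251 and of 4.20 at D3. It reached the mean of 0.5 TPM needed for testing only through exposed libraries, so it is given no fold change or p. F3, the tissue factor that starts coagulation, rose in U87 by 0.83 at D3 and 0.96 at D28 and fell by 0.34 at D28WO (adjusted p = 0.0432, limma). In U251 F3 fell by 0.58, 0.35 and 0.85 at the last 3 of the 4 times, and its D3 change of -0.20 (adjusted p = 0.131, limma) did not pass. In all, 3 of 3 tested genes of this class rose at D28 in U87, where 23.8% of all genes passed, and 3 of 4 rose and 1 fell in U251, where 40.6% did. The U251 count includes IL10RA, which was tested only because of its level in exposed libraries. Of other cytokine receptors, 5 of 15 tested rose and 1 fell at D28 in U87, and 8 of 16 rose and 5 fell in U251. IL15RA, the specific chain of the IL-15 receptor, rose by 2.66 at D28 in U87 and by 3.40 in U251.

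Interferon transcripts were scarce. Of 22 ligand genes, 16 were listed at 0 in every U87 library and 10 in every U251 library, and IFNG was listed at 0 in all 28 libraries. IFNB1, the ligand of IFNAR1 and IFNAR2, was listed at 0 in all U87 libraries and in the 3 Untreated libraries of U251. In U251 it measured 2.21, 1.09 and 2.11 TPM at D3, 3.81, 3.47 and 3.24 at D14, 6.26, 6.77 and 8.59 at D28, and 2.05, 1.66 and 0.927 at D28WO. IFNB1 was thus above Untreated in every exposed library and highest in the 3 libraries of D28. IFNL1, a ligand of IFNLR1, was listed at 0 in untreated U251 and measured 2.23, 1.91 and 3.53 TPM at D28. With Untreated at 0, neither gene is given a fold change or a p.

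For each chain the genes with the most similar course over the libraries of a line were sought among those with a range of group means of at least 1 (log2), and 6457 genes were compared in U87 (6456 for IFNLR1) and 6994 in U251. In U251 IFNGR2 was closest to THY1 (Pearson r = 0.981), COL8A1 (0.977) and SLC1A1 (0.974), and IL10RB to PPL (0.943), MAP1LC3A (0.936) and SHF (0.935). IFNAR1 was closest to ADAM12, SIDT2 and DBNL (0.931 each), IFNAR2 to ENSG00000215692 (0.841), and IFNGR1 to WEE2-AS1 (0.874). IFNLR1 of U251 reached at most 0.840 (ENSG00000233411). In U87 IFNLR1 was closest to LAIR1 (0.946) and BICDL1 (0.937), IFNGR1 to TBC1D16 (0.945) and CUL9 (0.938), and IFNAR2 to ATF7IP (0.937) and RFX3 (0.935). IFNGR2 of U87 was closest to MIR3681HG (0.903) and NOTCH3 (0.889), IFNAR1 to RNASE1 (0.936) and SLC2A1 (0.934), and IL10RB to CCDC178 (0.829). These are the highest of all correlations computed over 13 or 15 libraries that share groups and scaling, and no test was made of them.

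Markers of cell types also moved in U251. All 6 tested glioma markers fell at D3 and at D28, where 40.9% and 40.6% of all genes passed. The summed level of the 7 markers was 3703 to 3775 TPM in Untreated. It was 1489 to 1825 TPM at D3, 2578 to 2971 TPM at D14, 1617 to 1835 TPM at D28 and 2108 to 2179 TPM at D28WO. In U87 this sum was 1945 to 2171 TPM in Untreated and 1762 to 1807 at D3. It was 1844 to 1935 at D14, 1807 to 1949 at D28 and 1517 to 1666 at D28WO. VIM and CD44 made up most of it, so it hides markers that rose. Of 6 tested, 1 fell at D3 and none passed at D14 (16.7% and 5.16% of all genes passed). At D28 2 rose and none fell, and at D28WO 2 rose and 3 fell (23.8% and 42% passed). GFAP rose by 1.38 and 1.45 at these times (adjusted p = 0.02 and 0.00801, limma). CDH5, an endothelial cadherin, fell in U251 from 27.6 TPM to 0.565 at D3 (-4.19, adjusted p = 1.8e-07, limma), and the 3 endothelial markers together went from 26.6 to 38.4 TPM in Untreated to 2.45 to 3.46 at D3, through CDH5, the 1 of the 3 that passed. The 3 leukocyte markers together were at most 1.69 TPM in U87 and reached 4.36 to 6.01 at D3 in U251, from 0.222 to 1.26 in Untreated, through CD14, which rose by 1.85 at D3. The 3 epithelial markers together were 3.91 to 9.87 TPM in untreated U87 and 8.03 to 9.26 at D28, within that range, where IFNLR1 was highest. At D28WO, where IFNLR1 was lower than at D28, they were 1.91 to 4.02 TPM, and EPCAM, an epithelial adhesion molecule, fell by 1.64 against Untreated (adjusted p = 0.00255, limma), whereas the change of CDH1, an epithelial cadherin, was 0.87 (adjusted p = 0.0515, limma). In U251 they were at most 2.90 TPM. The part of these shifts in the changes of the receptor chains was not tested.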

How the data were processed

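RNA was extracted with RNeasy, made into TruSeq libraries and read on an Illumina HiSeq. The submitters' processing notes name FastQC, Trim Galore, STAR, featureCounts, edgeR and GRCh38, without versions. The authors deposited TPM values, 1 table per line, and how TPM was computed is not stated. A supplementary sheet calls the matrices CPM, in which all genes with 1 read share 1 value; here at most 9 to 19 genes of a library shared a value above 0, and the values were used as TPM. Of the U87 columns, 2 share a single name and were left out. TPM keeps no depth, so no detection limit is given.

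Samples were grouped by their labels. All 5 groups of a line entered 1 fit of limma 3.58.1 (R 4.3.3, lmFit and eBayes with trend) on log2(TPM + 1), over genes whose mean in that line reached 0.5 TPM. A fold change on this scale understates that of low genes. Ratios of chains (pseudocount 0.1) were compared with two-sided exact permutation tests over libraries (scipy 1.17.1), adjusted over 6. The procedure was tested on simulated data. P-values measure the spread between cultures of 1 line.

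The members and gene lists were chosen with earlier results of these data known. Named genes were the 6 chains, the JAK and response check genes, up to 6 genes per list and comparison that passed and changed by more than 1 (log2) either way, the markers, and for each chain and line up to 3 genes with the highest correlation. IFNAR2-IL10RB, IL10RB-DT and TMEM50B were added for their overlap with members, IFNG as the treatment, and CRYZL1, BTRC, FBXW11, PRKD2 and F3 after their values were seen. The results of some listed genes are not reported here. Alternatives were a pseudocount of 0.1, no filter, a filter at 1 TPM, quantile normalization, median-ratio size factors, 2 groups per fit, a replicate block, array weights, a stricter threshold, and omission of each library, of D28WO or of D14.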

Additional observations from a re-analysis of the deposited data

Results flagged for a closer look

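The change of IFNAR2 at D3 went opposite ways in the lines. Against Untreated it was 0.35 on the log2 scale in U87, where both D3 libraries lay above all Untreated libraries, and -0.46 in U251, where all 3 lay below. Relative to the median of all genes it was 0.155 in U87 and -0.586 in U251. The change of IFNLR1 at D28 was likewise 1.64 in U87, with all 3 libraries above the Untreated range, and -0.38 in U251, with all 3 below. The changes of IFNAR2 in U87 and of IFNLR1 in U251 did not pass on their own. The differences between the lines were not tested.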

How the results depend on the processing

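Of 1818 alternative values, 1554 kept direction and side of the threshold (within 1.5 times for counts). This number includes many values that had not passed, which a stricter threshold cannot change. Under that threshold 31 fold changes of chains lost their call. Direction turned, in U87, for IFNLR1 at D14 (quantile, -0.22) and D28WO (pseudocount 0.1, -0.11, quantile, -0.49, size factors, -0.086, array weights, -0.011) and IL10RB at D14 (replicate block, 0.022). In U251 it turned for IFNAR1 at D14 (quantile -0.019, size factors -0.061), IFNGR1 at D28 (array weights 0.023), IFNAR2 at D28 (quantile -0.057, size factors -0.11), IL10RB at D28WO (quantile -0.0072, size factors -0.0034, array weights -0.0038), IFNGR2 between D28WO and D28 (size factors 0.045), and the ratio of IFNAR2 over IFNAR1 without D14 (0.011). None of these had passed, and the causes were not tested.

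Of the chains, the stricter threshold left 1 in U87 at D28, D28 against D14 and D28WO against D28, and 0 in the other comparisons. In U87, D3 fell to 0 with no filter or 2 groups per fit, D14 against D3 to 0 with 2 groups, D28 against D14 to 1 with a pseudocount of 0.1 and 0 with 2 groups, and D28WO against D14 rose from 0 to 1 with no filter, a 1 TPM filter, quantile, size factors, the replicate block or 2 groups and to 2 with array weights. In U251, D14 rose from 0 to 1 with quantile or size factors and D28WO against D28 fell to 1 with a pseudocount of 0.1 or no filter. The count of passing kinases, IRF genes and inhibitors in U87 went from 1 to 0 at D14 with a pseudocount of 0.1 or quantile and from 9 to 5 at D3 with quantile. Without D28WO, the U87 ratio of IFNAR2 over IFNAR1 was 0.39 (adjusted p 0.05). Without D14, that of IFNGR2 over IFNGR1 was -0.86 in U87 and -0.70 in U251, both past the threshold. In each case all exposed libraries lay on 1 side of all Untreated ones, so the p was the smallest that the remaining libraries allow.

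Leaving out each library in turn, the chains that passed numbered 0 to 1 (D14 against D3), 0 to 0 (D14), 0 to 2 (D28 against D14), 2 to 3 (D28), 0 to 3 (D28WO against D14), 1 to 2 (D28WO against D28), 2 to 4 (D28WO) and 0 to 1 (D3) in U87 and 3 to 4 (D14 against D3), 0 to 1 (D14), 2 to 4 (D28 against D14), 3 to 3 (D28), 1 to 4 (D28WO against D14), 1 to 3 (D28WO against D28), 1 to 3 (D28WO) and 4 to 4 (D3) in U251. The differences of the log2 ratios ranged from 0.40 to 0.55 (IFNAR2 over IFNAR1), -0.82 to -0.64 (IFNGR2 over IFNGR1) and 1.11 to 1.53 (IFNLR1 over IL10RB) in U87 and from -0.096 to -0.029 (IFNAR2 over IFNAR1), -0.61 to -0.50 (IFNGR2 over IFNGR1) and 0.086 to 0.19 (IFNLR1 over IL10RB) in U251. Fold changes that changed sign ranged from -0.24 to 0.033 (IFNAR2, D14 against D3), -0.14 to 0.22 (IFNGR1, D14 against D3), -0.14 to 0.13 (IL10RB, D14), -0.12 to 0.24 (IFNGR1, D28 against D14), -0.29 to 0.11 (IFNLR1, D28WO against D14) and -0.16 to 0.23 (IFNLR1, D28WO) in U87 and from -0.14 to 0.29 (IFNLR1, D14 against D3), -0.0019 to 0.049 (IFNAR1, D14), -0.29 to 0.15 (IFNLR1, D14), -0.013 to 0.056 (IFNAR2, D28), -0.048 to 0.049 (IFNGR1, D28), -0.11 to 0.15 (IFNAR2, D28WO against D14), -0.012 to 0.42 (IFNLR1, D28WO against D14) and -0.018 to 0.085 (IL10RB, D28WO) in U251, and none had passed.

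Same-numbered libraries did not deviate together (correlations -0.058 to 0.047 over 23 pairs in U87 and -0.038 to 0.048 over 30 in U251), and 4 of 13 and 5 of 15 libraries correlated best with their own number. With the replicate number as a block, IFNAR2 of U87 passed at D3 (0.41, adjusted p = 0.0423) and D28 (adjusted p = 0.0279), IL10RB of U87 passed for D28WO against D14 (adjusted p = 0.0456), IFNGR1 of U251 passed at D28WO (adjusted p = 0.0382), and IFNGR1 of U87 at D28 did not (adjusted p = 0.0708, limma). TPM gives no depth, so low values such as those of IFNLR1 in U87 carry no counting interval.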
